A study of Schmidtea mediterranea with 48 samples.

Results

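wnt1 and notum are a pair of secreted regulators of Wnt signalling that planarian muscle switches on at wounds. They were followed as 2 of the 26563 transcripts in the table of read counts, chosen by identifier: dd_Smed_v4_28398_0_1 for wnt1 and dd_Smed_v4_24180_0_1 for notum. The identifiers are fixed by gene name and not by a threshold on measured values, although the pair was taken up with earlier results of these data known. Both passed the low-count filter in the fits of each experiment and of all 48 libraries. Neither identifier shares its assembly component with another row of the table. The names come with the identifiers, since the files hold identifiers only. For the same reason 0 of 22 symbols of other Wnt pathway genes, and 0 of 13 symbols of muscle, stem cell, neural, epidermal and gut markers, could be matched, and these genes are not analysed here. The tissue label and the knockdown of the targeted genes therefore could not be checked against marker or target levels.

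Wnt ligands are lipid-bearing secreted proteins that bind Frizzled receptors on nearby cells and stabilise beta-catenin. In planarians this signal sets the head-tail axis, with high activity at the tail end and low activity at the head end. wnt1 encodes a ligand, which is induced in muscle at wounds of either facing and later marks the tail pole. notum encodes an enzyme that removes the lipid from Wnt proteins and so inactivates them; it is induced mainly at wounds that face the head end and later marks the head pole.

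Poly(A) RNA was sequenced from wound faces cut from tail fragments of Schmidtea mediterranea, strain CIW4, with 5 wounds per replicate. Times are in hours after the cut (hpa) and were 0, 6, 24 and 48. The study asked how expression in the regenerating tail fragment changes when myoD or follistatin is inhibited by feeding double-stranded RNA (RNAi). The myoD protein is a transcription factor that acts in muscle; the follistatin protein (gene symbol fst) is secreted and binds and blocks Activin-type ligands. In 1 experiment animals received myoD RNA or control RNA in 10 feedings over 5 weeks per the labels, where the series text gives 8 feedings. In the other they received fst RNA or control RNA in 6 feedings over 3 weeks. The control RNA in both was that of unc-22, a gene of the nematode Caenorhabditis elegans, so all 16 groups had been fed double-stranded RNA. Each group (an RNAi treatment in an experiment at a time) held 3 libraries, 48 in all. Whether replicates of a group were taken from different animals is not stated, so the p-values speak only of how these libraries spread, and that spread may be technical.

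Total counts per library ran from 11698530 to 21974437 in the 10-feeding experiment and from 7169717 to 22065480 in the 6-feeding experiment, where the groups at 48 hpa were the shallowest. Both genes are sparse: a library held 2 to 143 reads of wnt1 and 11 to 161 reads of notum, and no library held 0 of either. The label of fst replicate 1 at 48 hpa records a high level of human contamination, and that library lay apart from the others of its group on the principal components. Apart from this, 3 transcripts were at 1 CPM or more in all 9 libraries of fst at 24 hpa, control at 48 hpa and fst at 48 hpa in the 6-feeding experiment, and under 0.5 CPM in the other 39. The comparison of fst with control at 48 hpa lies within those 9 libraries. That split and the groups cannot be told apart in the comparison of fst with control at 24 hpa, in 48 against 0 hpa of that experiment, in 24 against 0 hpa and 24 against 6 hpa of fst, or in 48 against 24 hpa of its controls. The split also enters results built on these comparisons. They are the fst RNAi averages over 6, 24 and 48 hpa, the fst RNAi test over time, and the comparison of myoD with fst RNAi effects. They also include the share of notum in fst RNAi at 24 hpa, its average, and the difference between control responses at 48 hpa. Levels are in CPM, a read count made relative to the scaled total of the library it comes from. They are not divided by transcript length, so wnt1 and notum are compared with themselves and not with each other. In pooled tissue, fewer expressing cells and less RNA per cell cannot be told apart.

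**Figure D1:**
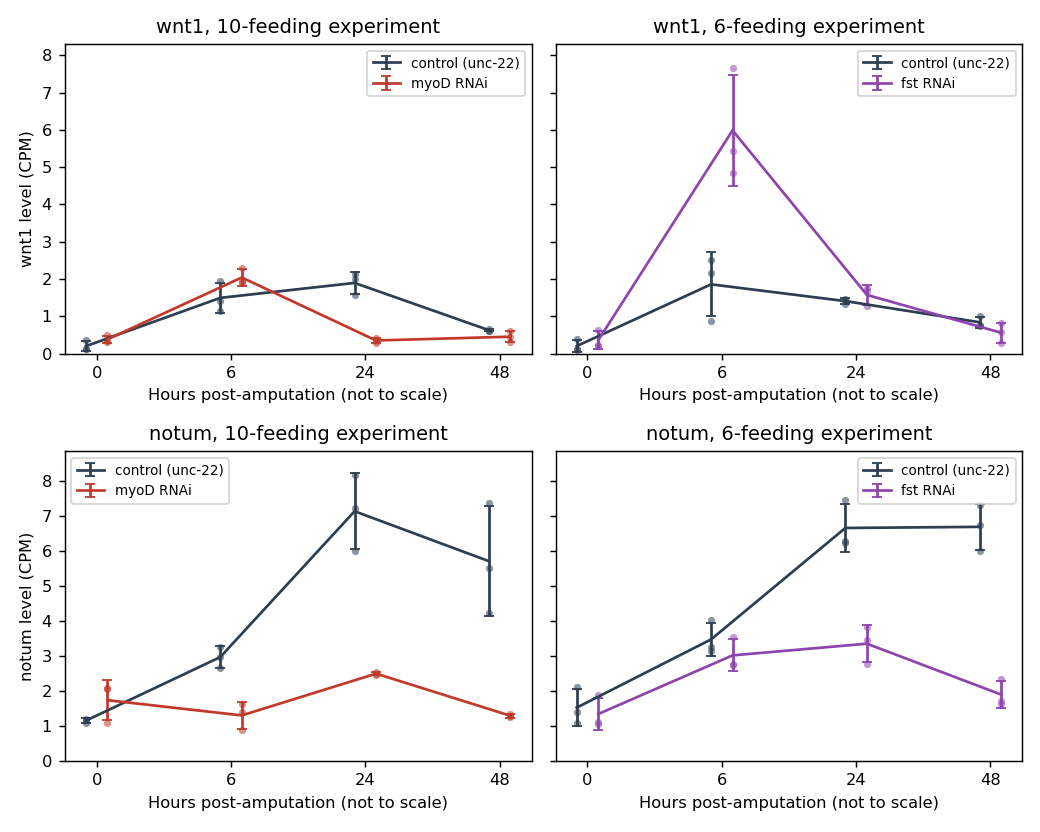
Levels of wnt1 (top) and notum (bottom) in CPM against hours post-amputation, as categories not drawn to time scale, in the 10-feeding (left) and 6-feeding (right) experiments. Points are the 3 libraries of a group, lines join means, and bars are the SD; wnt1 reached 5.99 CPM in fst RNAi at 6 hpa, and notum stayed at or below 2.49 CPM in all 4 myoD RNAi groups by mean.

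In control wounds wnt1 rose by 6 hpa and was still high at 24 hpa. At 48 hpa its mean was lower again, a fall that passed the test in the 10-feeding controls only. The highest means of notum were at 24 and 48 hpa. Its fold at 6 hpa was smaller than that of wnt1, a difference that was not tested. In the 10-feeding controls wnt1 stood at 0.128, 0.354 and 0.114 CPM at 0 hpa. It stood at 1.94, 1.14 and 1.40 CPM at 6 hpa, at 2.12, 1.99 and 1.57 CPM at 24 hpa, and at 0.618, 0.613 and 0.650 CPM at 48 hpa. Every library at 6, 24 and 48 hpa lay above every library at 0 hpa, and the 48 hpa libraries lay below all of those at 24 hpa, as for 13.1% of transcripts. Libraries wholly above those at 0 hpa were found for 16.2%, 19.8% and 24.7% of transcripts at 6, 24 and 48 hpa. Against 0 hpa, wnt1 was 7.43-fold higher at 6 hpa (95% confidence interval 4.32 to 12.8, adjusted p = 1.43e-06). It was 9.29-fold higher at 24 hpa (5.55 to 15.6, adjusted p = 5.35e-08) and 3.15-fold higher at 48 hpa (1.66 to 5.99, adjusted p = 0.00360). A rise was called for 9.92%, 14.3% and 20.4% of all transcripts at the same times, and by size the rise of wnt1 ranked 16, 19 and 126 of 17527. The level of wnt1 at 0 hpa rests on 9 reads over the 3 libraries. Without replicate 2 at 0 hpa, the library with 5 of these reads, the folds were 11.5, 14.4 and 4.88. Counting error alone in a library is about 62.0% at 0 hpa and 32.2% at 48 hpa. The SD at 48 hpa was 3.22% of the mean, so that closeness is not a measure of precision. The intervals given above for wnt1 are narrower than counting error on so few reads would give.

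The 6-feeding controls gave a like course for wnt1. It stood at 0.131, 0.0923 and 0.377 CPM at 0 hpa and at 2.52, 0.884 and 2.16 CPM at 6 hpa. At 24 hpa it stood at 1.33, 1.43 and 1.46 CPM, and at 48 hpa at 0.747, 0.762 and 1.01 CPM. The widest spread was at 6 hpa, where replicate 2 (9 reads) lay far below the other 2 libraries, but still above all 3 at 0 hpa. In these controls 13.9%, 21.5% and 24.4% of transcripts lay wholly above 0 hpa at the 3 times. The folds against 0 hpa were 9.88 at 6 hpa (5.12 to 19.1, adjusted p = 4.61e-05), 7.22 at 24 hpa (3.68 to 14.2, adjusted p = 0.000154) and 4.21 at 48 hpa (1.86 to 9.54, adjusted p = 0.00682). A rise was called for 3.78%, 8.55% and 16% of transcripts at these times. Here 10 reads carry the level at 0 hpa, and without replicate 3, which holds 6 of them, the folds were 16.8, 12.3 and 7.15.

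From 24 to 48 hpa wnt1 fell by 1.56 on the log2 scale in the 10-feeding controls (SE 0.29, adjusted p = 0.000355), as 5.77% of transcripts fell. In the 6-feeding controls the same step was -0.78 (SE 0.40, adjusted p = 0.303) and did not pass the test, although the 3 libraries at 48 hpa lay below the 3 at 24 hpa; 15.2% of transcripts had that arrangement. Between 6 and 24 hpa wnt1 differed by 0.32 (SE 0.24, adjusted p = 0.343) and by -0.45 (SE 0.32, adjusted p = 0.424) in the respective controls. Neither step passed the test, so the data do not say at which of these times wnt1 was higher.

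notum in the 10-feeding controls stood at 1.15, 1.20 and 1.08 CPM at 0 hpa and at 3.26, 2.97 and 2.65 CPM at 6 hpa. It stood at 5.99, 8.16 and 7.23 CPM at 24 hpa and at 7.36, 5.51 and 4.23 CPM at 48 hpa. All libraries after amputation lay above those at 0 hpa, and those at 24 hpa above those at 6 hpa, the latter as for 19% of transcripts. The folds against 0 hpa were 2.56 (1.79 to 3.68, adjusted p = 0.000227), 6.14 (4.46 to 8.45, adjusted p = 2.90e-10) and 4.89 (3.52 to 6.80, adjusted p = 2.52e-09) at 6, 24 and 48 hpa. The rise ranked 153, 30 and 56 by size. From 6 to 24 hpa notum rose by 1.26 on the log2 scale (SE 0.19, adjusted p = 1.31e-05), a rise called for 14% of transcripts, and from 24 to 48 hpa it differed by -0.33 (SE 0.18, adjusted p = 0.261).

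In the 6-feeding controls notum stood at 2.10, 1.38 and 1.07 CPM at 0 hpa and at 3.24, 3.14 and 4.01 CPM at 6 hpa. It stood at 6.23, 7.45 and 6.26 CPM at 24 hpa and at 6.73, 6.00 and 7.31 CPM at 48 hpa. The libraries at 24 and 48 hpa overlapped each other. Those at 24 hpa lay above all at 6 hpa, as for 15.2% of transcripts, and those at 6 hpa above all at 0 hpa. The folds against 0 hpa were 2.33 (1.67 to 3.25, adjusted p = 0.00195), 4.46 (3.28 to 6.08, adjusted p = 1.67e-07) and 4.44 (3.21 to 6.14, adjusted p = 1.13e-07). From 6 to 24 hpa notum rose by 0.94 (SE 0.20, adjusted p = 0.00481), as 2.98% of transcripts rose, and from 24 to 48 hpa it differed by -0.01 (SE 0.19, adjusted p = 0.990).

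The responses of the 10-feeding and 6-feeding controls were also set against each other directly, in 1 fit of all 48 libraries. For wnt1 the difference in log2 response (10-feeding minus 6-feeding) was -0.40, 0.40 and -0.39 at 6, 24 and 48 hpa, with 95% intervals from -1.87 to 1.06, from -1.06 to 1.85 and from -1.97 to 1.19. For notum it was 0.16, 0.50 and 0.17, with intervals from -0.56 to 0.87, from -0.17 to 1.17 and from -0.51 to 0.86. None passed the test (adjusted p from 0.682 to 0.918), where 4%, 0.395% and 0.905% of transcripts did. The intervals for wnt1 are wide enough to hold differences of more than 2-fold in either direction.

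**Figure D2:**
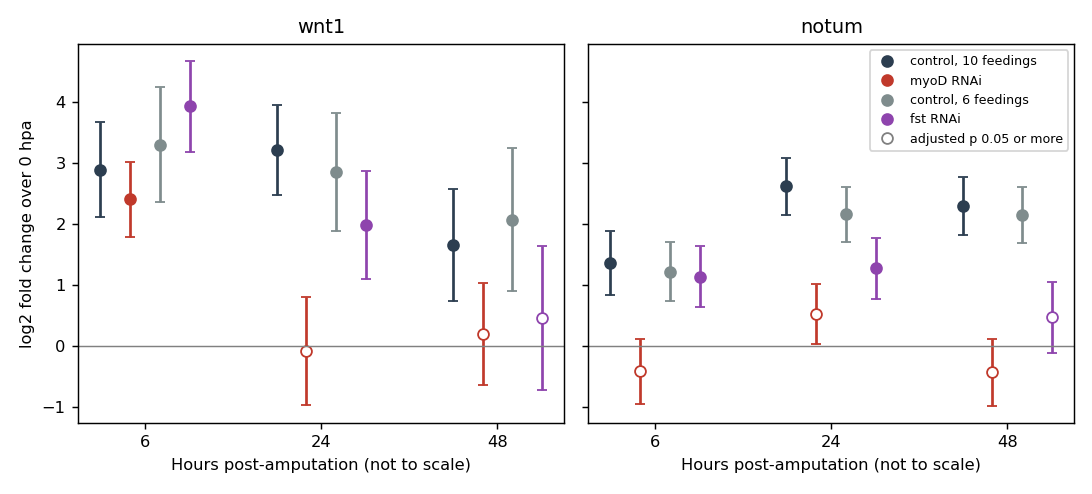
Log2 change from 0 hpa to 6, 24 and 48 hpa for wnt1 and notum in the 4 series of groups, with 95% confidence intervals from the fit over all transcripts of each experiment. The myoD RNAi values of notum lie between -0.43 and 0.52 at all 3 times, while the control values lie between 1.22 and 2.62; within a series all 3 points share the same 0 hpa libraries.

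After myoD RNAi, wnt1 rose by 6 hpa and was back near its 0 hpa level at 24 hpa, where it was lower than in controls, and notum showed no rise over its 0 hpa level that passed the test at any time. In myoD RNAi wounds wnt1 stood at 0.328, 0.321 and 0.495 CPM at 0 hpa and at 2.30, 1.91 and 1.91 CPM at 6 hpa. At 24 hpa it stood at 0.339, 0.423 and 0.291 CPM, and at 48 hpa at 0.309, 0.447 and 0.602 CPM. The 6 hpa libraries lay above those at 0 hpa, as for 19% of transcripts, and above those at 24 hpa, as for 16.3%, while those at 24 and 48 hpa overlapped those at 0 hpa. wnt1 was 5.32-fold higher at 6 hpa than at 0 hpa (3.47 to 8.14, adjusted p = 5.85e-07), a rise called for 9.85% of transcripts and ranked 27 by size. It fell by 2.49 on the log2 scale from 6 to 24 hpa (SE 0.32, adjusted p = 1.59e-06), where 6.74% of transcripts fell. Against 0 hpa the log2 change was -0.08 (SE 0.44, adjusted p = 0.937) at 24 hpa and 0.20 (SE 0.41, adjusted p = 0.844) at 48 hpa.

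Set against the controls of the same time, wnt1 in myoD RNAi differed by 0.95 on the log2 scale at 0 hpa (SE 0.49, adjusted p = 0.756) and by 0.46 at 6 hpa (SE 0.24, adjusted p = 0.495). Both pairs of groups overlapped, and neither difference passed the test, which 0.588% and 0.565% of transcripts passed; at 6 hpa the 95% interval ran from -0.02 to 0.95. At 24 hpa wnt1 was 5.10-fold lower than in controls (log2 change -2.35, SE 0.32, adjusted p = 1.57e-05). All 3 myoD RNAi libraries lay below all 3 control libraries, as for 12.3% of transcripts, and a fall was called for 3.37%. By size this fall ranked 13 of 17527. The level of wnt1 in myoD RNAi at 24 hpa rests on 16 reads over the 3 libraries. The SE of this fall is smaller than counting error on so few reads would give. The fall remained called without each of the 6 libraries compared in turn (log2 change from -2.54 to -2.24, adjusted p up to 0.000302). At 48 hpa the log2 change was -0.51 (SE 0.38, adjusted p = 0.381). The highest myoD RNAi library, at 0.602 CPM, lay just under the lowest control library at 0.613 CPM, an arrangement held by 18.9% of transcripts, and the difference did not pass the test.

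notum in myoD RNAi wounds stood at 2.08, 1.07 and 2.04 CPM at 0 hpa and at 1.62, 1.39 and 0.873 CPM at 6 hpa. It stood at 2.46, 2.54 and 2.47 CPM at 24 hpa and at 1.24, 1.34 and 1.28 CPM at 48 hpa. The 24 hpa libraries lay close together, with an SD of 1.68% of the mean. Counting error alone at 29 to 48 reads is about 16.7%, so this closeness is not a measure of precision. The 24 hpa libraries lay above all at 0 hpa, as for 16.6% of transcripts, and above all at 6 hpa, as for 14.5%. They also lay above all at 48 hpa, as for 13.5%, while the other groups overlapped. Against 0 hpa the log2 change was -0.42 at 6 hpa (SE 0.26, adjusted p = 0.297), 0.52 at 24 hpa (SE 0.24, adjusted p = 0.134) and -0.43 at 48 hpa (SE 0.27, adjusted p = 0.348). A rise was called for 9.26% of transcripts at 24 hpa and for 4.2% at 48 hpa. Between successive times notum rose by 0.95 from 6 to 24 hpa (SE 0.26, adjusted p = 0.0120; 6.33% of transcripts rose). It fell by 0.96 from 24 to 48 hpa (SE 0.26, adjusted p = 0.0148; 6.51% fell). The first call was lost without replicate 3 at 6 hpa (adjusted p = 0.0973). The second was lost without replicate 2 at 24 hpa (0.0609) or replicate 1 at 48 hpa (0.0642).

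Against controls, notum in myoD RNAi differed by 0.58 on the log2 scale at 0 hpa (SE 0.27, adjusted p = 0.650), with overlapping libraries. The unadjusted 95% interval ran from 0.02 to 1.14. The changes from 0 hpa in myoD RNAi thus start from a higher mean than those in controls. At 6 hpa it was 2.30-fold lower (log2 change -1.20, SE 0.25, adjusted p = 0.0140), with all 3 libraries below the controls, as for 7.47% of transcripts; a fall was called for 0.365%. At 24 hpa it was 2.86-fold lower (log2 change -1.52, SE 0.20, adjusted p = 7.38e-06), and at 48 hpa 4.42-fold lower (log2 change -2.14, SE 0.23, adjusted p = 2.02e-08). The libraries did not overlap at either time, as for 12.3% and 18.9% of transcripts. A fall was called for 12.9% of transcripts at 48 hpa, and that of notum ranked 35 by size. The call at 6 hpa was lost without myoD RNAi replicate 2 (adjusted p = 0.0508), myoD RNAi replicate 3 (0.141) or control replicate 1 (0.0927).

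Averaged over 6, 24 and 48 hpa, notum was 3.08-fold lower in myoD RNAi than in controls (log2 change -1.62, SE 0.13, adjusted p = 6.83e-11). wnt1 was 1.74-fold lower (log2 change -0.80, SE 0.19, adjusted p = 0.00234). A fall in this average was called for 11.7% of transcripts. The myoD RNAi effect varied over the 4 times for wnt1 (adjusted p = 5.12e-05, interaction test) and for notum (adjusted p = 2.70e-05), as for 11.2% of transcripts. For wnt1 the average therefore joins values of -2.35 at 24 hpa and 0.46 at 6 hpa.

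**Figure D3:**
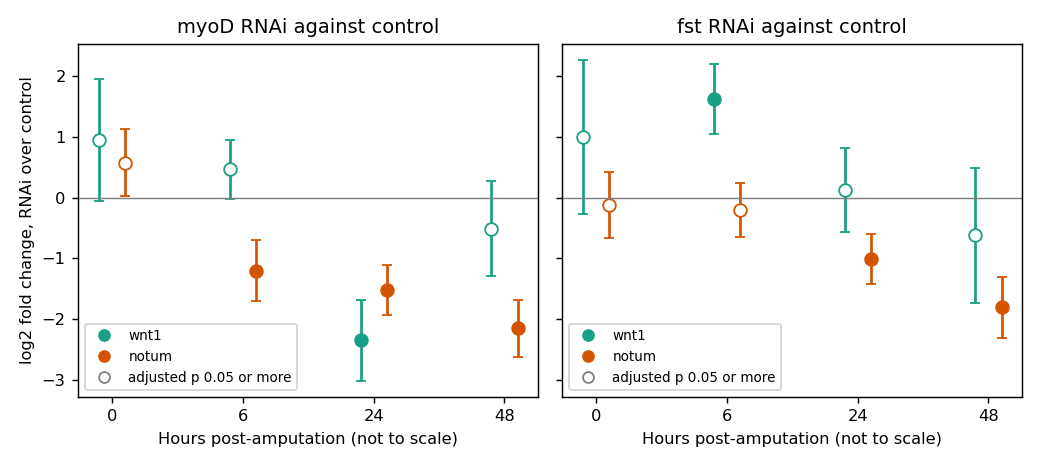
Log2 difference between RNAi and control wounds of the same experiment and time for wnt1 and notum, with 95% confidence intervals. The interval of notum lies wholly below 0 from 6 hpa on in myoD RNAi and from 24 hpa on in fst RNAi, while wnt1 lies at -2.35 at 24 hpa in myoD RNAi and at 1.62 at 6 hpa in fst RNAi.

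After fst RNAi, wnt1 was higher than in controls at 6 hpa, and notum was lower than in controls at 24 and 48 hpa. In fst RNAi wounds wnt1 stood at 0.200, 0.231 and 0.639 CPM at 0 hpa and at 4.85, 5.44 and 7.66 CPM at 6 hpa. At 24 hpa it stood at 1.68, 1.28 and 1.76 CPM, and at 48 hpa at 0.815, 0.292 and 0.567 CPM. The 6 hpa libraries were the 3 highest of all 48, and the 48 hpa libraries overlapped those at 0 hpa; at 6 hpa 17% of transcripts lay wholly above 0 hpa. The fold against 0 hpa was 15.3 at 6 hpa (9.14 to 25.6, adjusted p = 3.96e-08), a rise called for 4.88% of transcripts and ranked 4 by size. It was 3.96 at 24 hpa (2.14 to 7.33, adjusted p = 0.00412), where a rise was called for 4.37%. The 0 hpa level rests on 18 reads, 12 of them in replicate 3, and without that library the folds were 26.5 and 6.85. At 48 hpa the log2 change from 0 hpa was 0.46 (SE 0.58, adjusted p = 0.613). wnt1 fell by 1.95 on the log2 scale from 6 to 24 hpa (SE 0.29, adjusted p = 0.000167; 3.06% of transcripts fell). From 24 to 48 hpa the change was -1.53 (SE 0.46, adjusted p = 0.0820) and did not pass the test; with DESeq2 in place of edgeR the adjusted p was 0.0447.

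Against controls of the same time, wnt1 in fst RNAi differed by 1.0 on the log2 scale at 0 hpa (SE 0.62, adjusted p = 0.651), with overlapping libraries; 0.646% of transcripts were called. At 6 hpa it was 3.08-fold higher (2.07 to 4.59; log2 change 1.62, SE 0.28, adjusted p = 0.00475). All 3 fst RNAi libraries lay above all 3 controls, as for 9.33% of transcripts, and a rise was called for 0.421%. That share depends on the fit: 175 transcripts were called in either direction, and 571 without the library noted for contamination. By size the rise ranked 48 of 17815. It remained called without each of the 6 libraries compared in turn (log2 change from 1.35 to 1.88, adjusted p up to 0.0346). At 24 hpa the libraries overlapped and the log2 change was 0.13 (SE 0.34, adjusted p = 0.971). At 48 hpa they overlapped as well, and the change was -0.62 (SE 0.54, adjusted p = 0.534), with a 95% interval from -1.73 to 0.49.

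notum in fst RNAi wounds stood at 1.1, 1.04 and 1.86 CPM at 0 hpa and at 2.74, 2.75 and 3.54 CPM at 6 hpa. It stood at 3.46, 2.76 and 3.81 CPM at 24 hpa and at 1.63, 2.34 and 1.70 CPM at 48 hpa. The 6 and 24 hpa libraries overlapped each other, as did those at 0 and 48 hpa. The 6 hpa libraries lay above those at 0 hpa, and the 24 hpa libraries above those at 0 hpa, as for 18% of transcripts, and above those at 48 hpa, as for 9.57%. The folds against 0 hpa were 2.20 at 6 hpa (1.56 to 3.10, adjusted p = 0.00311) and 2.41 at 24 hpa (1.70 to 3.43, adjusted p = 0.00147). At 48 hpa the log2 change was 0.47 (SE 0.28, adjusted p = 0.247), where a rise was called for 10.6% of transcripts. From 6 to 24 hpa notum differed by 0.13 (SE 0.21, adjusted p = 0.804), where the controls of this experiment had risen. From 24 to 48 hpa it differed by -0.80 (SE 0.25, adjusted p = 0.0939), a step that did pass without replicate 2 at 48 hpa (adjusted p = 0.0433).

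Against controls, notum in fst RNAi differed by -0.12 on the log2 scale at 0 hpa (SE 0.27, adjusted p = 0.945) and by -0.20 at 6 hpa (SE 0.21, adjusted p = 0.744), with overlapping libraries at both times. The interval at 6 hpa ran from -0.64 to 0.23. At 24 hpa notum was 2.01-fold lower (log2 change -1.01, SE 0.20, adjusted p = 0.00941), with all libraries below the controls, as for 10.4% of transcripts. A fall was called for 0.298%. In either direction 150 transcripts were called at 24 hpa, and 381 without the library noted for contamination. At 48 hpa it was 3.49-fold lower (log2 change -1.80, SE 0.24, adjusted p = 2.15e-05), again with no overlap, as for 11% of transcripts, and a fall was called for 3.6%. Without the library whose label notes contamination, the change at 48 hpa was -1.72 (adjusted p = 7.34e-05). The call at 24 hpa was lost without control replicate 2 (adjusted p = 0.0739) or fst RNAi replicate 2 (0.119).

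Averaged over 6, 24 and 48 hpa, notum was 2.01-fold lower in fst RNAi (log2 change -1.01, SE 0.13, adjusted p = 1.15e-05), where 2.91% of transcripts fell. For wnt1 the average was 0.38 (SE 0.24, adjusted p = 0.397). The fst RNAi effect varied over the 4 times for notum (adjusted p = 0.0119), as for 2.07% of transcripts. For wnt1 the same test gave an adjusted p of 0.0745. That result depended on the setting, with an adjusted p of 0.0205 in DESeq2 and 0.0312 without the library noted for contamination.

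The myoD and fst RNAi effects have separate controls and were compared in the fit of all 48 libraries, as the difference of the averages over 6, 24 and 48 hpa. The log2 effect of myoD RNAi was lower than that of fst RNAi by a difference of -1.18 for wnt1 (SE 0.30, 95% interval from -1.79 to -0.57, adjusted p = 0.0109). For notum the difference was -0.62 (SE 0.19, from -1.0 to -0.24, adjusted p = 0.0343). A difference in either direction was called for 7.23% of transcripts. The number of feedings differed between the experiments in the same way as the targeted gene, and the effect of the gene and that of the feeding scheme cannot be told apart in these values. For notum the call was lost without the low-count filter (adjusted p = 0.0521) and without 10 of 36 single libraries in turn. Across the 8 comparisons of RNAi with control at single times, the median log2 change of all transcripts lay between -0.01 and 0.02.

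The share of notum among the reads of both genes needs no scaling between libraries. It depends on the lengths of the transcripts, so only its changes are read. In the 10-feeding controls it averaged 85.9% ± 7.49 at 0 hpa, 66.8% ± 4.91 at 6 hpa, 78.8% ± 4.38 at 24 hpa and 89.6% ± 2.81 at 48 hpa (SD, n = 3 each). In the 6-feeding controls it averaged 87.3% ± 11.6, 66.4% ± 11, 82.5% ± 1.40 and 88.9% ± 1.07. Both sets of controls thus had their lowest mean share at 6 hpa, when the fold of wnt1 against 0 hpa was larger than that of notum. This change of the share over time was not tested.

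With myoD RNAi the share averaged 81.3% ± 4.77 at 0 hpa, 38.3% ± 6.00 at 6 hpa, 87.7% ± 1.89 at 24 hpa and 74.3% ± 6.03 at 48 hpa. At 6 hpa the libraries held 41.4%, 42.1% and 31.4% of notum against 62.7%, 72.2% and 65.5% in controls. At 24 hpa the order was the other way, with 85.7% to 89.5% in myoD RNAi and 73.8% to 82.1% in controls. At 48 hpa the libraries ran from 68.0% to 80.0%, below the 86.7% to 92.2% of controls. The 3 and 3 libraries did not overlap at any of these times, which gave an exact two-sided permutation p of 0.1 each, the smallest that 3 against 3 can give. The average difference over 6, 24 and 48 hpa was -11.6 percentage points (exact two-sided test over 8000 permutations of labels within times, p = 0.0270, adjusted p over the 2 RNAi treatments 0.0270). Since the difference changes sign between times this average rests on 6 and 48 hpa. It was -3.20 points without 6 hpa (exact permutation p = 0.495) and -9.81 points without 48 hpa (exact permutation p = 0.145).

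With fst RNAi the share averaged 80.3% ± 5.24 at 0 hpa, 33.8% ± 2.27 at 6 hpa, 68.0% ± 0.582 at 24 hpa and 76.9% ± 11.2 at 48 hpa. At 6 hpa the libraries held 36.1%, 33.6% and 31.6% of notum, all below the 56.2%, 78.0% and 64.9% of controls. At 24 hpa they ran from 67.3% to 68.4%, again below the controls at 81.1% to 83.9%. At 48 hpa 66.7%, 88.9% and 75.0% overlapped the controls at 87.9% to 90.0%; the lowest of these, from the library noted for contamination, rests on 18 reads and has a 95% Wilson interval from 43.7% to 83.7%, which covers counting error only. The average difference was -19.7 points (exact two-sided test over 8000 permutations within times, p = 0.000750, adjusted p over the 2 treatments 0.00150). At 0 hpa the differences were -4.66 points for myoD RNAi and -6.96 points for fst RNAi (exact permutation p = 0.3 and 0.4).

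**Figure D4:**
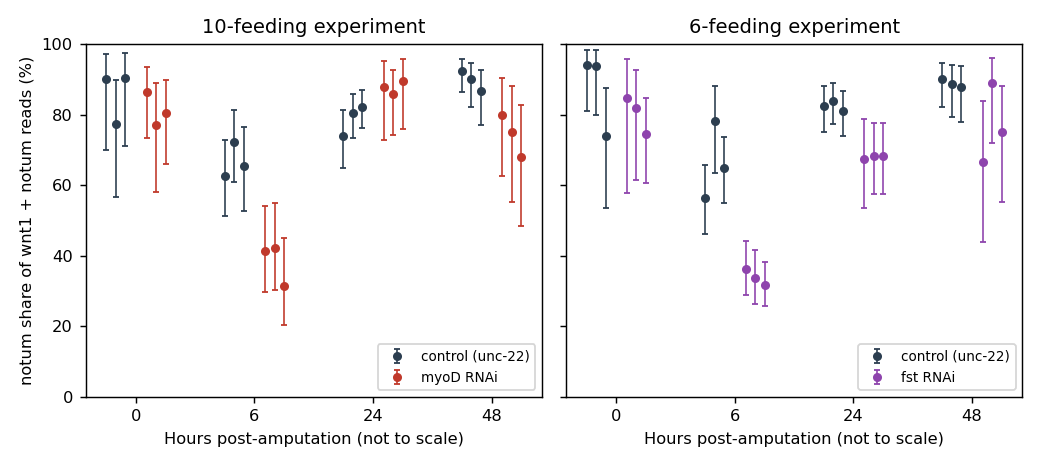
Share of notum among the reads of wnt1 and notum, in percent, against hours post-amputation. Points are single libraries, and bars are their 95% Wilson intervals, which cover counting error only. At 6 hpa the share averaged 38.3% in myoD RNAi and 33.8% in fst RNAi against 66.8% and 66.4% in the respective controls, while at 24 hpa it was above controls in myoD RNAi and below controls in fst RNAi.

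Over all 16 groups wnt1 was highest in fst RNAi at 6 hpa, at 5.99 CPM ± 1.48 (SD, n = 3). It was followed by myoD RNAi at 6 hpa (2.04 ± 0.222 CPM) and the 10-feeding controls at 24 hpa (1.89 ± 0.288 CPM). The lowest levels were those of the 10-feeding controls (0.199 ± 0.135 CPM) and 6-feeding controls (0.200 ± 0.155 CPM) at 0 hpa. Of the 15 pairs of neighbours in this order, 12 overlapped in their libraries. The 3 that did not were fst RNAi at 6 hpa above myoD RNAi at 6 hpa, the 6-feeding controls at 24 hpa above the same controls at 48 hpa, and these above the 10-feeding controls at 48 hpa. Of all transcripts, 15.2% had the arrangement of the 6-feeding controls at 24 and 48 hpa. For the pairs that cross the experiments such a share was not computed, so they only describe the order. With myoD RNAi at 24 hpa, wnt1 (0.351 ± 0.0666 CPM) stood at rank 14 of 16, among the groups at 0 hpa.

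The 4 highest groups for notum were the controls at 24 and 48 hpa, from 7.12 ± 1.09 CPM in the 10-feeding controls at 24 hpa to 5.70 ± 1.57 CPM in those at 48 hpa, and their libraries overlapped. The 3 lowest were myoD RNAi at 6 hpa (1.30 ± 0.383 CPM), myoD RNAi at 48 hpa (1.29 ± 0.0517 CPM) and the 10-feeding controls at 0 hpa (1.15 ± 0.0615 CPM). Among the 15 pairs of neighbours 11 overlapped. The other 4 began with the 10-feeding controls at 48 hpa above the 6-feeding controls at 6 hpa. Next came the 10-feeding controls at 6 hpa above myoD RNAi at 24 hpa, and the latter above fst RNAi at 48 hpa. The last was myoD RNAi at 48 hpa above the 10-feeding controls at 0 hpa, by 1.24 against 1.20 CPM in the nearest libraries. The share of all transcripts arranged likewise was not computed for these 4 pairs, so they only describe the order.

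Other transcripts were ranked by how closely their group means of log2 CPM followed those of wnt1 or notum over the 16 groups, among 17287 transcripts kept in both experiments. These correlations describe the groups, which share experiments and depth, and carry no test. The likest to wnt1 were dd_Smed_v4_9178_0_1 (Pearson r = 0.93) and dd_Smed_v4_15499_0_1 (r = 0.92). The first moved over a narrow range, from 1.56 CPM in the 10-feeding controls at 0 hpa to 2.92 CPM in fst RNAi at 6 hpa. dd_Smed_v4_15499_0_1 moved over a wider range. It stood at 1.78 ± 0.441 CPM at 0 hpa and 11.7 ± 3.51 CPM at 6 hpa in the 10-feeding controls, at 2.62 ± 0.632 CPM in myoD RNAi at 24 hpa against 7.79 ± 0.603 CPM in controls, and at 16.8 ± 2.31 CPM in fst RNAi at 6 hpa against 9.98 ± 0.955 CPM in controls. In fst RNAi at 24 hpa it went another way than wnt1, at 3.67 ± 0.960 CPM against 6.59 ± 1.1 CPM in controls, where wnt1 stood at 1.57 ± 0.257 CPM against 1.41 ± 0.0715 CPM. The choice of dd_Smed_v4_9178_0_1 depended on the measure, since it was not among the 5 likest by Spearman's rho or by Pearson's r over the 48 libraries.

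The likest to notum were dd_Smed_v4_1449_0_1 and dd_Smed_v4_1557_0_1, both with r = 0.94; over the 48 libraries dd_Smed_v4_1557_0_1 was not among the 5 likest. Both moved over a narrow range. The first ran from 80.6 ± 1.91 CPM in the 10-feeding controls at 0 hpa to 119 ± 7.39 CPM at 48 hpa, where myoD RNAi wounds held 88.7 ± 1.54 CPM. The second stood at 35.5 ± 0.913 CPM in the 10-feeding controls at 0 hpa and at 53.4 ± 3.88 CPM at 48 hpa, against 38.5 ± 2.36 CPM in myoD RNAi. wnt1 and notum themselves had r = 0.49 over the 16 groups, which placed notum at rank 1369 among the transcripts like wnt1 and wnt1 at rank 2963 among those like notum.

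**Figure D5:**
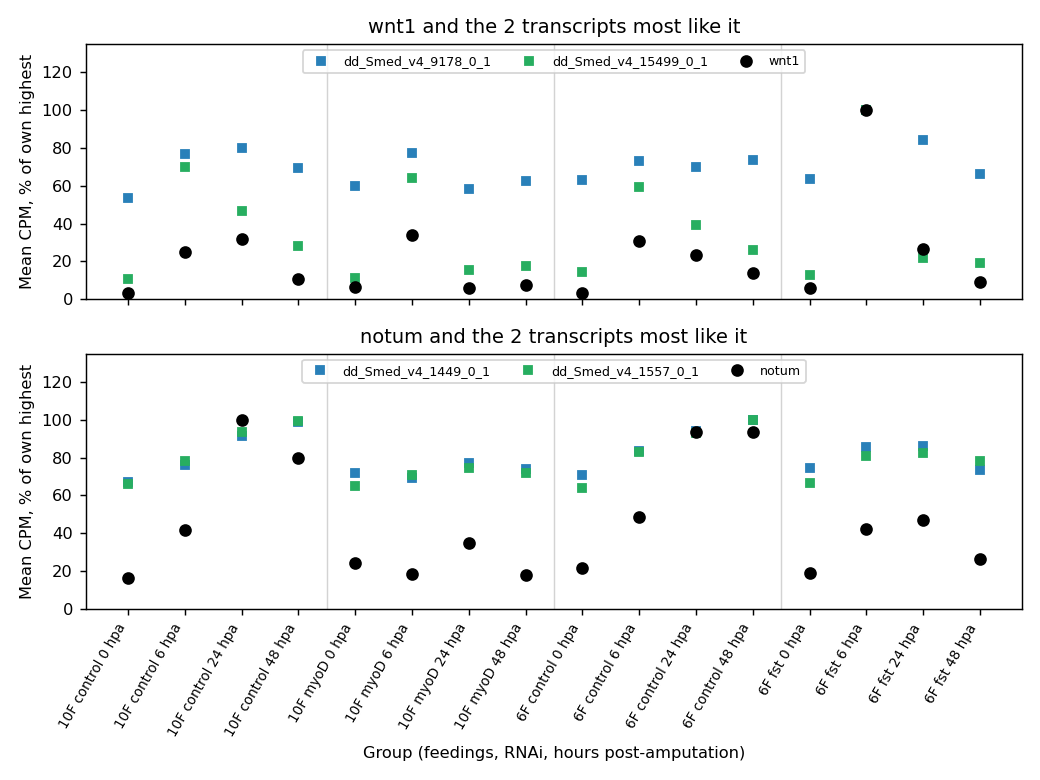
Mean CPM of wnt1 (top) and notum (bottom) and of the 2 transcripts most like each, as a percent of each transcript's own highest group mean, in all 16 groups. All 3 transcripts of the upper panel have their highest mean in fst RNAi at 6 hpa, where the points coincide at 100; dd_Smed_v4_9178_0_1, dd_Smed_v4_1449_0_1 and dd_Smed_v4_1557_0_1 vary less than the gene they resemble.

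In the authors' deposited tables wnt1 had an adjusted p under 0.05 in 10 of 20 comparisons and notum in 12 of 20. The share of all transcripts called in the same comparisons was not computed, so these counts have no background and only describe the deposited values. Among the 8 comparisons of RNAi with control, the calls differed in 2 cases. The authors' deposited table gives notum at 6 hpa in myoD RNAi an adjusted p of 0.0711 with a log2 fold change of -1.18. For wnt1 at 6 hpa in fst RNAi the authors' deposited table gives an adjusted p of 0.0772 with a log2 fold change of 1.69. In the edgeR fit both passed the test, at log2 changes of -1.20 and 1.62.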

How the data were processed

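Per the submitters' processing notes, CASAVA, cutadapt 1.8, Bowtie 1.1.1, SAMtools and DESeq were used on the reads; the strand setting of the counting is not stated in the labels or headers. The deposited count table holds whole-number read counts per transcript and library. In the authors' deposited comparison tables the group means are a normalised signal (counts divided by size factors), the fold is a ratio of these means, the log2 fold change is its log2, and p-values are raw and adjusted.

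The test on counts was that of edgeR 4.0.16 under R 4.3.3 (filterByExpr, minimum count 10; TMM; robust quasi-likelihood F-test with Benjamini-Hochberg adjustment over all transcripts; threshold 0.05). The experiments were fitted apart, with 24 libraries, 17527 and 17815 transcripts and 8 group coefficients each; differences between experiments used 48 libraries and 18230 transcripts. The common coefficients of variation over all transcripts, which edgeR names biological, were 8.34%, 13% and 10.9%. They may be technical, since the source of the replicates is not stated. In the 10-feeding and 6-feeding fits the values were 7.61% and 19.7% for wnt1, and 13.0% and 11.6% for notum. Depth ran from 7169717 to 22065480 counts per library, so levels under 1 CPM rest on few reads. Standard errors were taken from the log2 fold change and its F (absolute change over root F). For transcripts with few reads they can be smaller than counting error alone. The SEs and intervals of wnt1, above all in the 10-feeding experiment, may therefore be too narrow. Shares have Wilson intervals and exact permutation tests. CPM levels use TMM factors of all 48 libraries. The fitting scripts were tested on simulated counts, where only transcripts averaging 1 CPM or more were changed and all had a common spread. Recovery of changes in sparser transcripts was not tested.

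The named transcripts are wnt1, notum and, for each, the 2 others with the highest Pearson r over the 16 group means (log2 CPM, prior count 2). The genes, lists and tests were chosen with earlier results of these data known. Alternatives were RLE and total-count scaling, no filter, DESeq2 1.42.0, only the compared groups, a replicate block, and each replicate left out. Sequences of the transcripts are not used here.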

Additional observations from a re-analysis of the deposited data

Results flagged for a closer look

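The effect of myoD RNAi differed between the 4 times for wnt1 (adjusted p = 5.12e-05, edgeR interaction test), with log2 changes of 0.95, 0.46, -2.35 and -0.51 at 0, 6, 24 and 48 hpa. It differed between times for notum too (adjusted p = 2.70e-05), with 0.58, -1.20, -1.52 and -2.14. The effect of fst RNAi differed between times for notum (adjusted p = 0.0119), with -0.12, -0.20, -1.01 and -1.80. The average effects of myoD and fst RNAi over 6, 24 and 48 hpa differed from each other for wnt1 (adjusted p = 0.0109) and for notum (adjusted p = 0.0343); feeding scheme and target gene cannot be told apart there.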

How the results depend on the processing

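Of 74 tested results, of which 41 were called, 65 kept their side of the threshold under each alternative that gave them a value, and no called result changed direction there. The step of notum from 24 to 48 hpa in the 6-feeding controls, not called, was -0.01 and became 0.12 with library totals. Other results not called changed sign with single libraries left out. Examples are wnt1 in myoD RNAi at 24 against 0 hpa (log2 change from -0.26 to 0.13) and notum in fst RNAi against control at 0 hpa (-0.49 to 0.15). RLE scaling and scaling by library totals changed no call among 72 results. Fitting only the compared groups changed none among the 59 results it gave. The other 13 had no value there: the 4 tests of variation over time already use all groups of an experiment, and 9 comparisons of wnt1, among them its called rise at 48 hpa in the 10-feeding controls, had none because wnt1 did not pass the low-count filter with these few libraries. The replicate block changed 1 call: the variation of the fst RNAi effect on wnt1 over time passed with the block (adjusted p = 0.0355), as it did in DESeq2 (0.0205), and ranged from 0.0312 to 0.172 with single libraries left out. RNAi and control samples sharing a replicate number and time showed little common deviation (24 pairs, r from -0.16 to 0.18, 2 over 0.1). Different numbers were not compared for reference, nor the same number across times, so pairing by number is not excluded. In DESeq2 the step of wnt1 from 24 to 48 hpa in fst RNAi also passed (log2 change -1.53). Without the low-count filter the notum difference between the RNAi effects was -0.60 and missed the threshold. The notum share difference in myoD RNAi was -3.20 points without 6 hpa and -9.81 points without 48 hpa, neither past the threshold.

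With single libraries left out, calls changed for notum in myoD RNAi against control at 6 hpa (log2 change from -1.38 to -0.97), in its steps from 6 to 24 hpa (0.71 to 1.13) and from 24 to 48 hpa (-0.98 to -0.93), in fst RNAi against control at 24 hpa (-1.13 to -0.87), in the step from 24 to 48 hpa in fst RNAi (-0.99 to -0.69) and in the difference between the RNAi effects (-0.68 to -0.54). Scaling by library totals moved the median of all transcripts by -0.12 to 0.21 on the log2 scale, over 0.1 in 6 of 34 comparisons. Counts of called transcripts, which set the background percentages, moved by over 1.5 times in 7 of 36 comparisons with DESeq2, 3 of 36 with library totals, 15 of 34 with only the compared groups (1300 to 127 for fst RNAi at 48 hpa) and 113 of 335 fits with a library left out. Without the library noted for contamination, calls for fst RNAi against control rose from 115 to 322 at 0 hpa, from 175 to 571 at 6 hpa and from 150 to 381 at 24 hpa. At 48 hpa they went from 1300 to 1214. The causes were not tested. Low counts of wnt1 at 0 and 48 hpa limit what could be detected there. Its level in myoD RNAi at 24 hpa rests on 16 reads as well.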
